A study of Homo sapiens with 12 samples.

Results

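The LIN28 and oncofetal let-7 axis was taken as 9 genes listed by symbol: LIN28A, LIN28B, TRIM71, IGF2BP1, IGF2BP2, IGF2BP3, HMGA1, HMGA2 and ARID3B. They were looked up among the 25718 gene symbols of the RefSeq count files, and where a gene had several transcripts the transcript with the highest mean count stood for it. All 9 were listed, 8 had counts, and the same 8 were among the 11451 genes with a mean above 10 counts that were tested. The samples were 12 RNA samples of H9, a human embryonic stem cell (hESC) line, carrying a lentiviral vector from which doxycycline switches on either miR-10a or miR-10b, together with GFP. All cells were infected at an MOI of 50 and underwent neural induction for 14 days, with SHH at 200 ng/ml and CT at 0.8 to pattern them towards ventral midbrain. In each vector, 3 samples received doxycycline from day 11 to day 14 and 3 did not, which gave 4 groups: miR-10a control, miR-10a with doxycycline, miR-10b control and miR-10b with doxycycline. The controls therefore carried the same vector as the treated cells, so an effect of doxycycline itself cannot be told apart from that of the miRNA, and no sort of infected cells before sequencing is stated. The 2 vectors were carried by separately transduced cells, so a difference between their controls cannot be assigned to the vector or to the culture.

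LIN28A and LIN28B are RNA-binding proteins that bind precursors of let-7 and block their maturation, and let-7 in turn represses LIN28 through sites in its 3′ UTR. The other members are known let-7 targets of the embryo and of tumours: TRIM71 (LIN41) is an RNA-binding ubiquitin ligase of early development, the IGF2BP proteins bind mRNAs and stabilise many of them, HMGA1 and HMGA2 are chromatin proteins that bind AT-rich DNA, and ARID3B is a DNA-binding protein. In neural progenitors the LIN28 genes are high early and decline as let-7 accumulates during differentiation. miR-10a and miR-10b lie in the HOX clusters and mark caudal neural tissue.

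The sequences by which let-7 and miR-10 would meet these transcripts are shown first, because the members differ in which of the 2 families they can pair with. Mature miRNAs were taken from RefSeq (GRCh38.p14), with bases 2 to 8, the seed, in capitals. The 9 let-7 family members read, among them miR-98, all carry the same seed and miR-10a carries another. The sequence of miR-10b was not read, so every miR-10 match below is a match to the seed of miR-10a.
hsa-let-7a-5p: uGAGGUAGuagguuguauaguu
hsa-let-7d-5p: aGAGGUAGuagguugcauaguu
hsa-miR-98-5p: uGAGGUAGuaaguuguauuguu
hsa-miR-10a-5p: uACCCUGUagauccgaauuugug

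Matches to these seeds were searched on the transcribed strand of the 3′ UTR of each member's canonical GENCODE 44 transcript on GRCh37, the assembly also called hg19, to which the authors mapped. An 8mer was CTACCTCA for let-7 and ACAGGGTA for miR-10, a 7mer-m8 was CTACCTC or ACAGGGT, and a 7mer-A1 was TACCTCA or CAGGGTA, where a 7mer inside an 8mer was not counted again. The lines show matches in the 3′ UTR exons with 8 bases on each side, the match in capitals, written as DNA.
LIN28A, let-7 8mer at chr1:26753854-26753861, + strand: ctattgaaCTACCTCAtttttgcc
LIN28A, miR-10 7mer-m8 at chr1:26754169-26754175, + strand: catgtgccACAGGGTgtgtgtgt
LIN28B, the first let-7 8mer at chr6:105526702-105526709, + strand: tgcaaagtCTACCTCAtgcaagta
TRIM71, the first let-7 8mer at chr3:32933475-32933482, + strand: cttaagtcCTACCTCAtctttatt
TRIM71, miR-10 7mer-m8 at chr3:32935450-32935456, + strand: ctgctgttACAGGGTgggaaggt
IGF2BP3, let-7 8mer at chr7:23351414-23351421, - strand: ttactcaaCTACCTCAggtattca
HMGA2, let-7 8mer at chr12:66357093-66357100, + strand: ttcgatttCTACCTCAgcagcagt
ARID3B, miR-10 7mer-A1 at chr15:74889504-74889510, + strand: agccgcccCAGGGTAtgaggaga

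All 9 members held at least 1 let-7 match, and 7 of them held an 8mer. TRIM71 had 4 let-7 8mers in 6013 bases, IGF2BP1 had 3 in 6701 bases, and LIN28B had 2 in 4549 bases. LIN28A, IGF2BP2, IGF2BP3 and HMGA2 had 1 each. HMGA1 and ARID3B held only 7mers. Of the genes tested, 9260 had an annotated 3′ UTR, of which 4.62% held a let-7 8mer and 0.259% held 2 or more, counted in the longest 3′ UTR of each gene. In that longest UTR, which for HMGA2 belongs to another transcript, HMGA2 held none.

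No member held a miR-10 8mer, which 2.59% of the 9260 genes did. A miR-10 7mer-m8 was present in LIN28A, TRIM71, IGF2BP1 and IGF2BP2, and 16.3% of the 9260 genes held a 7mer-m8 or an 8mer. LIN28B, IGF2BP3, HMGA1 and HMGA2 held no miR-10 match of the 3 kinds. These are matches of letters and were not tested as binding sites.

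**Figure D1:**
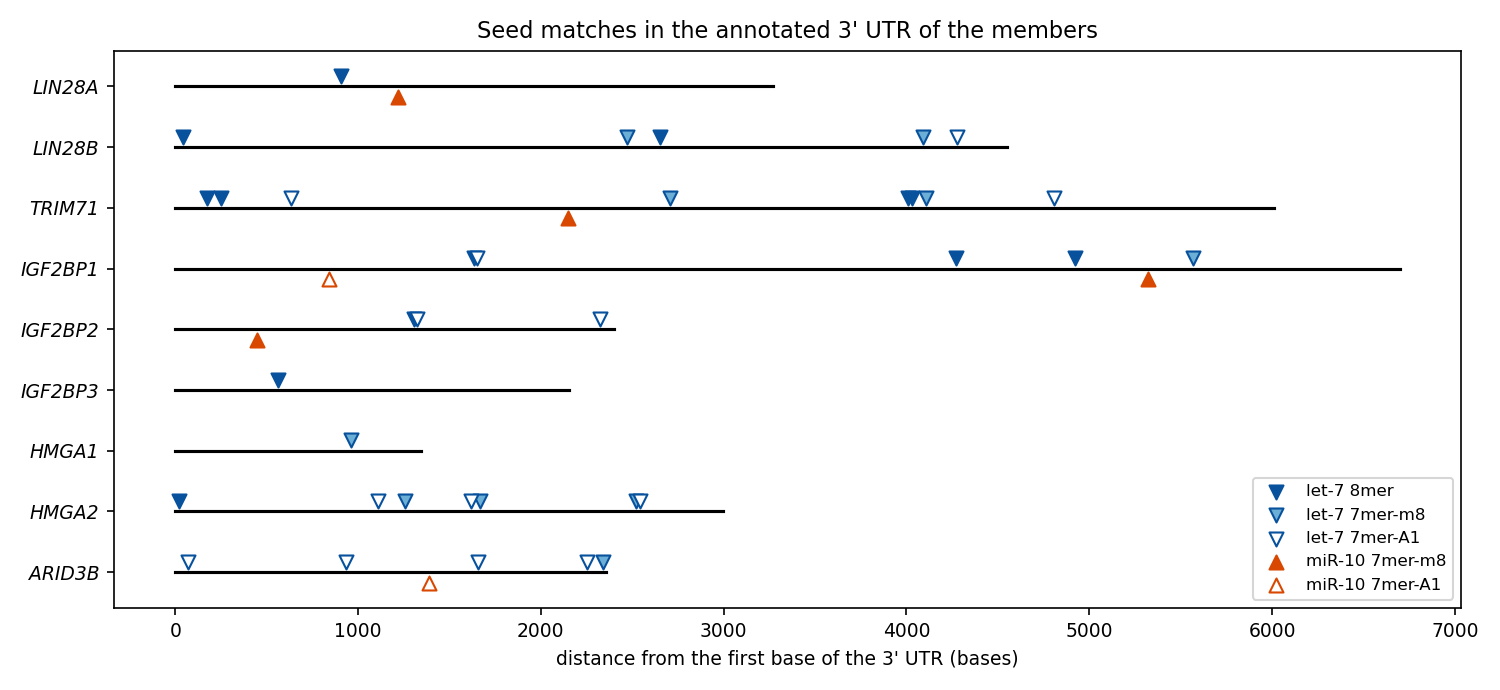
Seed matches along the 3′ UTR of the 9 members. The horizontal axis is the distance in bases from the first base of the UTR, each line is 1 UTR drawn to its length, and downward and upward triangles mark let-7 and miR-10 matches of the kinds given in the key. TRIM71 carries 8 let-7 matches and LIN28A 1, while LIN28A, TRIM71, IGF2BP1, IGF2BP2 and ARID3B carry a miR-10 match.

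The libraries held between 10545487 and 14165426 counts, and each control was deeper than every doxycycline sample of its vector. Levels are given in CPM, the usual scaling of counts to the library total, on which 3 counts, taken as the floor, equal 0.212 to 0.284 CPM. The switch worked on the vector that carried it: the MIR10A transcript stood at 0.999 ± 0.363 CPM in miR-10a controls and 723.7 ± 10.8 CPM with doxycycline (SD, n = 3), and MIR10B at 3.55 ± 0.807 and 2619 ± 67.5 CPM in the miR-10b groups. In the controls of the other vector each was lower: MIR10A at 0.052 ± 0.045 CPM, under the floor, and MIR10B at 0.814 ± 0.294 CPM. Replicate 2 of miR-10b with doxycycline stood apart from the other 2 of its group, with chi-square values per degree of freedom of 3.17 and 4.11 against at most 1.93 for every other pair of replicates. Markers of neural progenitors summed to 10980 to 12681 CPM and those of the floor plate to 1118 to 1447 CPM, whereas neural crest markers summed to at most 2.08 CPM. The floor plate sum was mostly SHH, with group means of 558 to 626 CPM, and FOXA1, with 405 to 591 CPM. OTX2, LMX1A and FOXA2, which have several transcripts, had group means of 0.354 to 9.48 CPM. Of 10 pluripotency markers, 7 or 8 were under 1 CPM in each group, and the sum was nearly all DPPA4. Among the low ones, POU5F1, NANOG, L1TD1 and TDGF1 have several transcripts. Reads shared between transcripts appear to be left out, so the low values of those genes, and of OTX2, LMX1A and FOXA2, are not read as levels. DPPA2, ZFP42 and PRDM14, with 1 transcript each, were also under 1 CPM.

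With doxycycline, LIN28A fell by 9.39% in miR-10a cells, and it fell by 20.8% in miR-10b cells. In miR-10a cells it stood at 1543, 1503 and 1572 CPM in the controls and at 1385, 1428 and 1371 CPM with doxycycline. In miR-10b cells the controls held 1149, 1132 and 1124 CPM and the doxycycline samples 905, 907 and 884 CPM. Every doxycycline sample was below every control of its vector, and the 4 groups did not overlap at all. The log2 fold change came to -0.14 in miR-10a cells (SE 0.028, adjusted p = 0.00316) and -0.34 in miR-10b cells (SE 0.029, adjusted p = 4.78e-11) in edgeR's quasi-likelihood F test, adjusted after Benjamini and Hochberg across 11451 genes. Without replicate 3 of the miR-10a controls, the miR-10a value was -0.13 with an adjusted p of 0.0520. These are bulk cultures, so fewer cells that express a gene and less RNA per cell cannot be told apart.

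The fall of LIN28A was larger with miR-10b than with miR-10a. The difference of the 2 log2 fold changes was -0.19 (SE 0.040, adjusted p = 0.00413), and it passed the threshold in all 12 fits that left out 1 sample, where its adjusted p was at most 0.0288. LIN28A was the only 1 of the 8 tested members past the threshold for this difference, beside 1.96% of all tested genes, of which 1.38% had the more negative change with miR-10b and 0.576% the more positive. The values of the other 7 members lay between -0.08 for TRIM71 (SE 0.052) and 0.10 for IGF2BP1 (SE 0.068), and HMGA1, at 0.05, had an SE of 0.325. The induced MIR10A and MIR10B transcripts also differed in level, MIR10B being the higher. Mature miR-10 was not measured in these poly-A libraries, and dose was not varied within a vector.

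**Figure D2:**
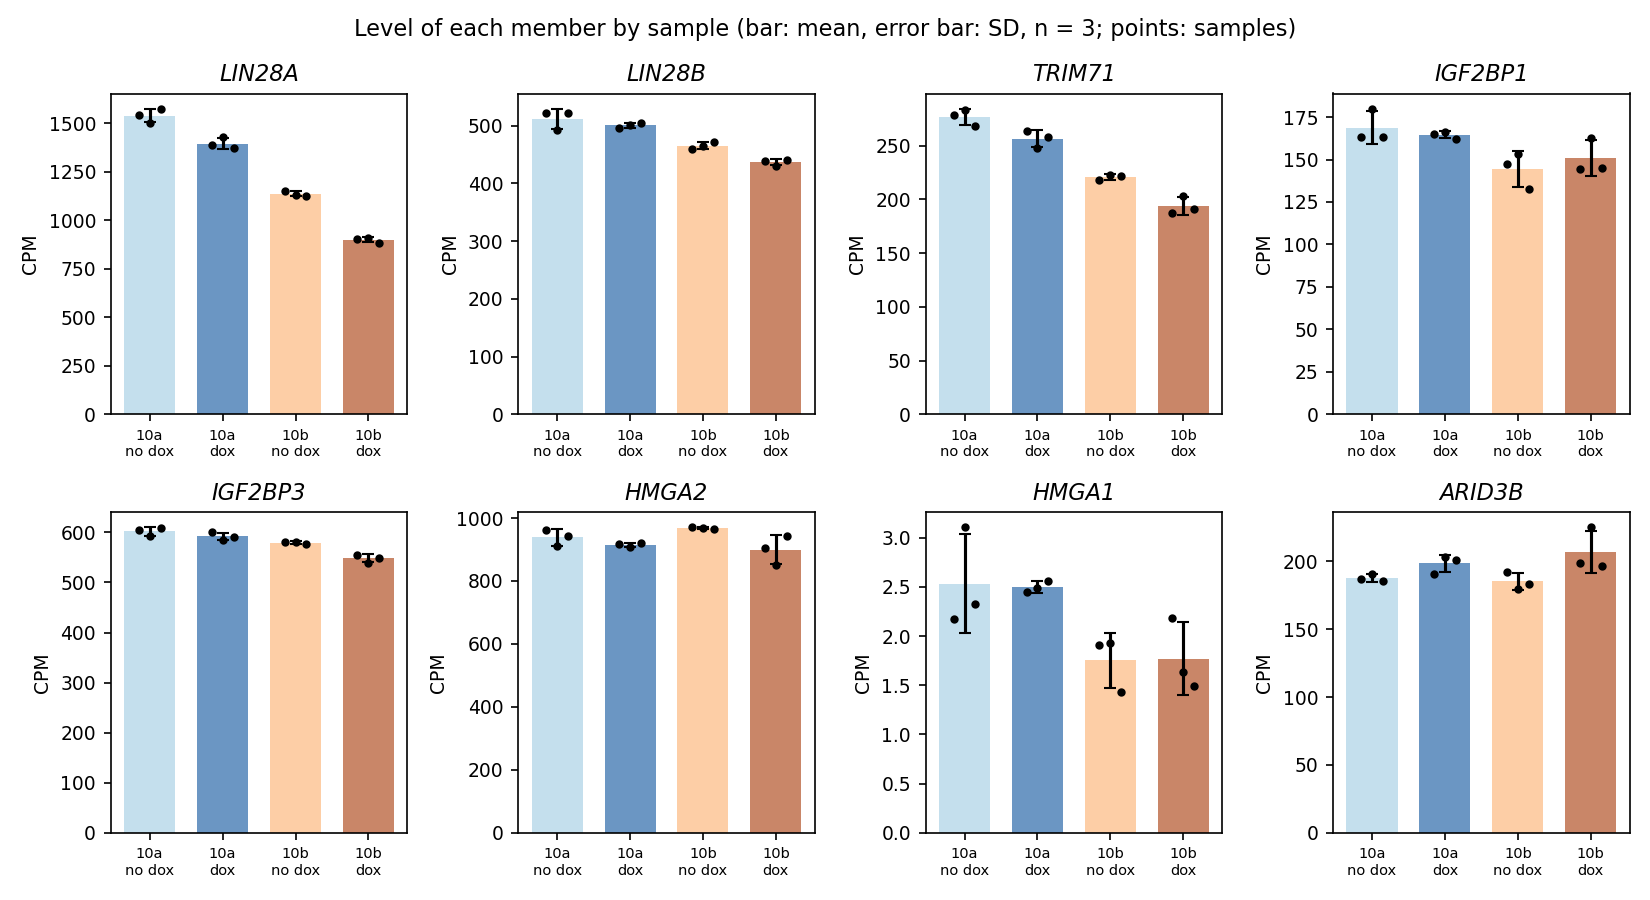
Level in CPM of the 8 members with counts, by group. Bars are means, error bars SDs (n = 3) and points the samples, and each axis starts at 0 with its own range. LIN28A steps down over the 4 groups from 1539 to 899 CPM without overlap, and TRIM71 from 277 to 194 CPM.

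LIN28B, the paralogue of LIN28A, had the smaller fold change in each vector. Its levels in miR-10a cells were 522, 492 and 522 CPM without and 496, 501 and 505 CPM with doxycycline. In miR-10b cells they were 459, 465 and 473 CPM without and 439, 431 and 440.4 CPM with doxycycline. The groups overlapped in miR-10a cells and were separate in miR-10b cells. The log2 fold change was -0.03 (SE 0.031, adjusted p = 0.783) and -0.09 (SE 0.031, adjusted p = 0.0402), and the second call was lost in 6 of the 12 fits that left out 1 sample.

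LIN28A and LIN28B were also set against each other within each sample, as CPM divided by the deposited transcript length in kilobases (RPKM). LIN28A was 4.12 ± 0.068 times as high as LIN28B in miR-10a controls and 3.82 ± 0.095 times with doxycycline. In miR-10b cells the ratio was 3.34 ± 0.086 without and 2.82 ± 0.068 with doxycycline (SD, n = 3). The ratio was lower in every doxycycline sample than in every control of its vector. The ratio of LIN28A to HMGA2 went from 1.69 ± 0.034 to 1.57 ± 0.045 under miR-10a, while under miR-10b it went from 1.21 ± 0.010 to 1.03 ± 0.067. For each of these comparisons the two-sided exact permutation p was 0.1, the smallest that 3 against 3 samples allow, and 0.12 after adjustment over the 12 ratio comparisons computed.

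**Figure D3:**
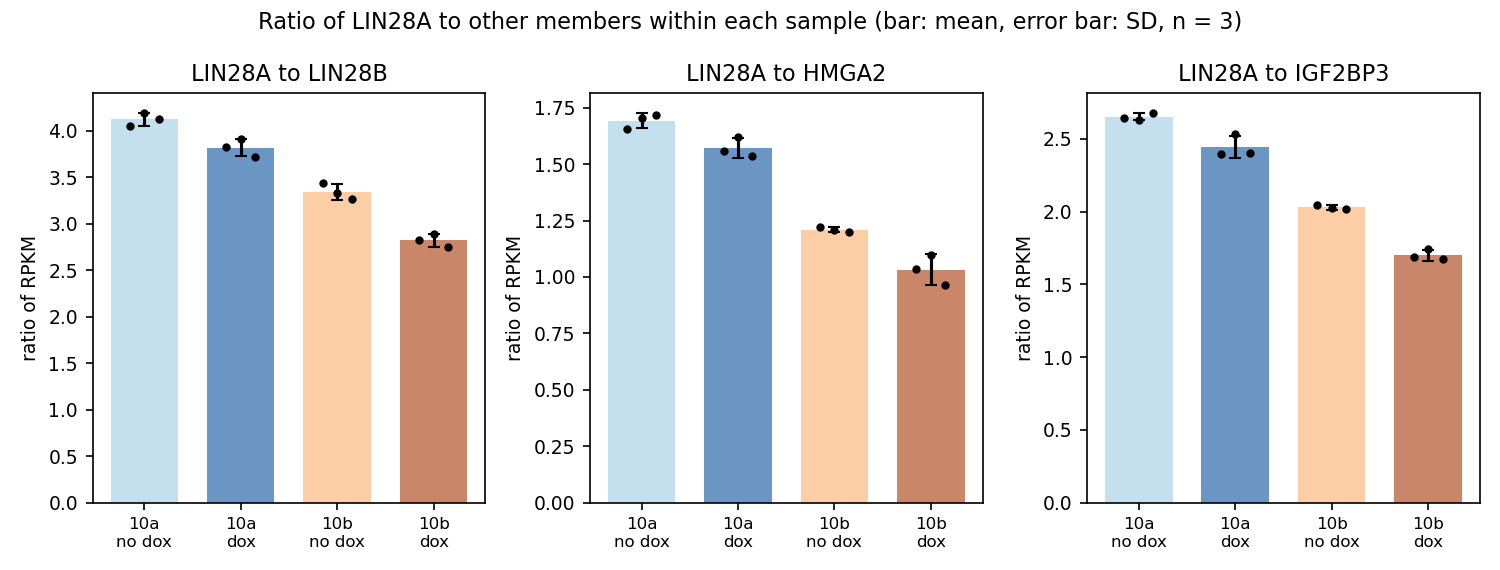
Ratio of the RPKM of LIN28A to that of LIN28B, HMGA2 and IGF2BP3 within each sample. Bars are means, error bars SDs (n = 3) and points the samples. Each ratio is lower with doxycycline in both vectors, and the ratio to LIN28B runs from 4.12 in miR-10a controls to 2.82 in miR-10b cells with doxycycline.

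TRIM71, whose product acts on mRNAs and on differentiation in the early embryo, was the only other member with lower, non-overlapping levels in both vectors, a pattern that 2.95% of the tested genes showed. In miR-10a cells it stood at 279, 283 and 268 CPM without and at 264, 248 and 258 CPM with doxycycline. In miR-10b cells it stood at 218, 223 and 222 CPM without and at 187, 203 and 191 CPM with doxycycline. The change in miR-10b cells, -0.19 (SE 0.037, adjusted p = 3.48e-04), passed the threshold in all 12 fits that left out 1 sample. The change in miR-10a cells was -0.11 (SE 0.036, adjusted p = 0.155) and passed only when the miR-10a samples were fitted alone (adjusted p = 0.0452) or without replicate 2 of miR-10b with doxycycline (adjusted p = 0.0396). Averaged over the vectors, TRIM71 fell by 0.15 (SE 0.026, adjusted p = 6.51e-05). The deposited transcript of TRIM71 was 3138 bases long, shorter than the annotated 3′ UTR alone, so its counts can cover at most part of the stretch that carries the matches.

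Of the mRNA-binding IGF2BP family, neither measured member passed the threshold with doxycycline. IGF2BP3 was at 605, 592 and 609 CPM in miR-10a controls and at 600.0, 585 and 591 CPM with doxycycline. In miR-10b cells it was at 582, 580.1 and 578 CPM in the controls and at 556, 539.8 and 548 CPM with doxycycline. The miR-10b groups were separate and the miR-10a groups were not. The miR-10b log2 fold change of IGF2BP3 was -0.08 (SE 0.029, adjusted p = 0.0540), and it passed with TMM scaling (adjusted p = 0.0189) and with DESeq2 (adjusted p = 0.00501).

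IGF2BP1 ranged from 162 to 179.9 CPM over the 6 miR-10a samples and from 132 to 163 CPM over the 6 miR-10b samples. Its groups overlapped in both vectors, and its log2 fold changes of -0.04 (SE 0.048) and 0.06 (SE 0.049) had adjusted p-values of 0.846 and 0.430. IGF2BP2 had 0 counts on each of its 7 transcripts in all 12 samples. Reads shared between transcripts seem not to have been counted, so these zeros are not read as a level of IGF2BP2, and its seed matches cannot be set beside a change.

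HMGA2, the embryonic chromatin protein with 7 let-7 matches, was the second highest member per length after LIN28A. It stood at 962, 909.8 and 943 CPM in miR-10a controls and at 916, 908 and 921 CPM with doxycycline. In miR-10b cells the controls were at 971, 967 and 965 CPM and the doxycycline samples at 903, 851 and 944 CPM. The doxycycline samples were lower only in miR-10b cells, where replicate 2 was the lowest. The miR-10b change was -0.11 (SE 0.032, adjusted p = 0.0196) and without that replicate -0.07 (adjusted p = 0.118). The call also failed without any 1 of the 3 miR-10b controls (adjusted p from 0.0527 to 0.0594). HMGA1 was counted on 1 of its 6 transcripts, with 18 to 44 counts a sample, and its log2 fold changes of -0.03 (SE 0.212) and 0.02 (SE 0.247) are too imprecise to show a change of the size seen in LIN28A.

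ARID3B was the member that went the other way. In miR-10a cells it was at 187, 191 and 185 CPM without and at 191, 203 and 201 CPM with doxycycline. In miR-10b cells it was at 192, 179.6 and 184 CPM without and at 199, 225 and 197 CPM with doxycycline. Every doxycycline sample was above every control of its vector, as in 3.71% of the tested genes. Its log2 fold change was 0.08 in miR-10a cells (SE 0.042, adjusted p = 0.496) and 0.16 in miR-10b cells (SE 0.042, adjusted p = 0.00686). Replicate 2 of miR-10b with doxycycline was the highest, and without it the miR-10b change was 0.10 with an adjusted p of 0.0860. Without replicate 2 of the miR-10b controls the adjusted p was 0.0559. The average over both vectors, 0.12 (SE 0.030, adjusted p = 0.00466), passed in all 12 such fits.

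In miR-10a cells, 1 of the 8 tested members passed the threshold, LIN28A, which was lower, where 1.21% of all tested genes passed, 0.742% lower and 0.472% higher. In miR-10b cells 5 of 8 passed, 4 lower (LIN28A, LIN28B, TRIM71 and HMGA2) and 1 higher (ARID3B), where 15.3% of all tested genes passed, 7.15% lower and 8.18% higher. In the average over both vectors 4 of 8 passed, 3 lower (LIN28A, TRIM71 and HMGA2) and 1 higher (ARID3B), beside 13.9% of all tested genes, 6.22% lower and 7.67% higher. The average call of HMGA2 held in only 4 of the 12 fits that left out 1 sample, where its adjusted p reached 0.111. The median log2 fold change over the 8 was -0.04 in miR-10a and -0.09 in miR-10b cells, against 0.01 and 0.02 over all tested genes. Without replicate 2 of miR-10b with doxycycline, the miR-10b count was 2 of 8, and LIN28A and TRIM71 were those left. It was also 2 without replicate 2 of the miR-10b controls, and 3 without replicate 3 of those controls. The split of calls over all genes depends on the scaling: of the genes called in miR-10b cells, 53.4% were higher as reported here, 44.3% with TMM and 38.1% with DESeq2. No member that passed the threshold changed direction under either scaling. Counted by overlap alone, in miR-10a cells 2 members were lower and 1 higher with doxycycline in every sample, where 7.75% and 10.5% of the tested genes were. In miR-10b cells 5 were lower and 1 higher, where 12.3% and 16.3% of the tested genes were.

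**Figure D4:**
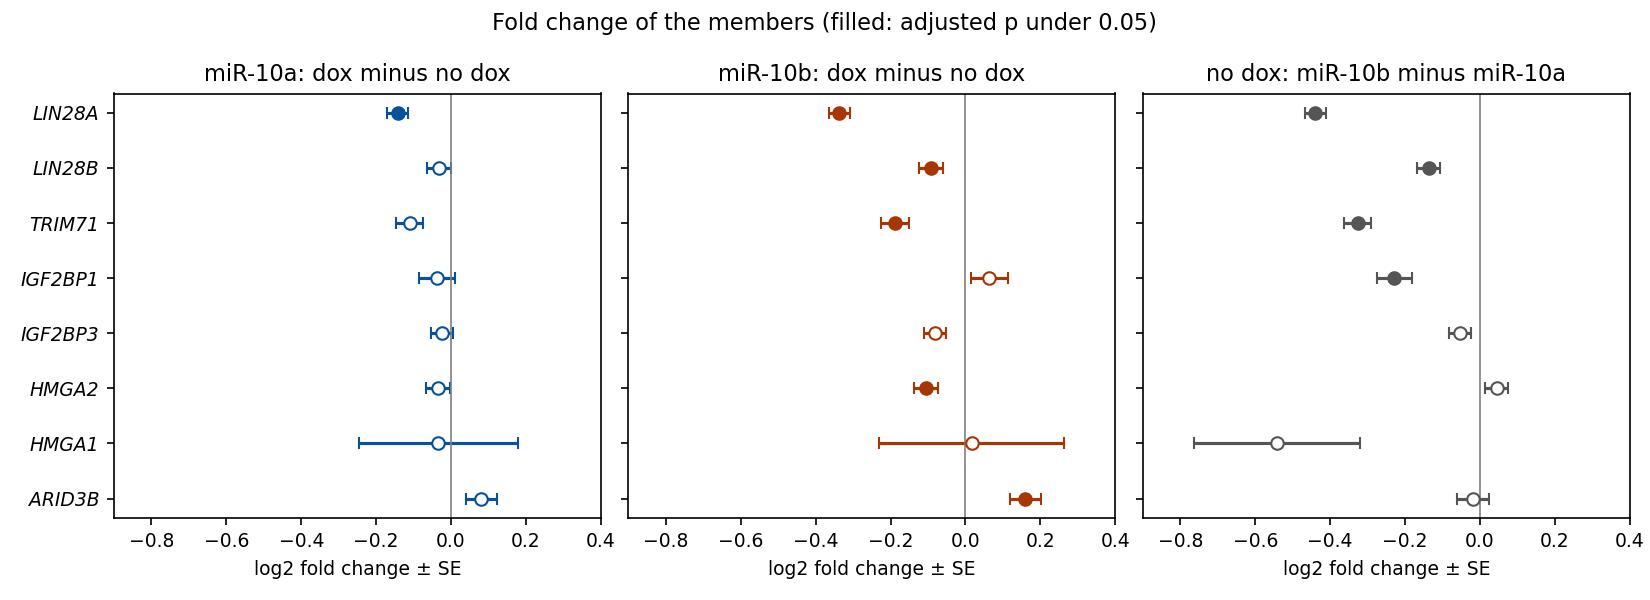
Log2 fold change and SE of the 8 tested members with doxycycline in miR-10a cells (left), with doxycycline in miR-10b cells (middle) and between the controls of the 2 vectors (right). Filled points had an adjusted p under 0.05 in edgeR's quasi-likelihood test. LIN28A lies farthest below 0 among the filled points in each panel.

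The controls of the 2 vectors already differed in these genes. LIN28A was lower in miR-10b than in miR-10a controls, with a log2 difference of -0.44 (SE 0.028, adjusted p = 8.06e-15) beside its doxycycline effects of -0.14 and -0.34. The difference was -0.33 for TRIM71 (SE 0.036, adjusted p = 7.72e-09), -0.23 for IGF2BP1 (SE 0.048, adjusted p = 6.02e-04) and -0.14 for LIN28B (SE 0.031, adjusted p = 0.00155). The 4 members that passed were lower, of 8 tested, beside 14.1% of all tested genes, 6.72% lower and 7.41% higher, and each passed in all 12 fits that left out 1 sample. HMGA1 had a difference of -0.54 that did not pass (SE 0.222, adjusted p = 0.103). IGF2BP3, HMGA2 and ARID3B had differences of -0.05, 0.04 and -0.02 with adjusted p-values from 0.257 to 0.843. The controls of the 2 vectors did not overlap in any tested member but ARID3B, with HMGA2 higher and the rest lower in miR-10b controls. Of all tested genes, 15.9% were lower and 14.2% higher in miR-10b controls without overlap. The miR-10b controls enter both this comparison and the doxycycline comparison of that vector, so the values are given side by side and no relation between them was computed.

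Markers of cell types also differed between these groups, and not in 1 direction. Of 9 tested progenitor markers, 4 were higher (SOX2, NES, VIM and NOTCH1) and 2 lower (SOX1 and SOX3) in miR-10b than in miR-10a controls, and with doxycycline in miR-10b cells 2 were higher and 3 lower. Of all tested genes 14.1% passed between the controls and 15.3% with doxycycline in miR-10b cells. With doxycycline in miR-10a cells no progenitor marker passed, where 1.21% of all tested genes did. SOX3, a transcription factor of early neural progenitors chosen here because its groups stand in the order of LIN28A, was at 157 ± 4.91 CPM in miR-10a controls, 144 ± 2.29 CPM in miR-10a with doxycycline, 92.6 ± 7.88 CPM in miR-10b controls and 70.2 ± 2.18 CPM in miR-10b with doxycycline (SD, n = 3). NES, an intermediate filament of progenitors, differed by 0.17 between the controls and fell by 0.14 with doxycycline in miR-10b cells (adjusted p = 1.12e-05 and 3.38e-04).

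Of 9 tested markers of the ventral midbrain floor plate, the identity aimed at, 5 were higher in miR-10b than in miR-10a controls and the others did not pass, with a median difference of 0.34. Of all tested genes 14.1% passed between the controls, 7.41% higher and 6.72% lower. CORIN, a floor plate protease, differed by 1.61 (adjusted p = 2.34e-15), LMX1A by 1.01 (adjusted p = 3.40e-05) and FOXA1 by 0.53 (adjusted p = 5.01e-16). With doxycycline 1 was lower in miR-10a and 2 in miR-10b cells: WNT1, a midbrain signalling ligand, fell by 0.45 and by 0.65 (adjusted p = 3.22e-05 and 1.10e-09), and CORIN fell by 0.77 in miR-10b cells (adjusted p = 6.28e-08).

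Of 7 tested neuronal markers 3 were higher (MAP2, NEFM and INA) and 1 lower (SYT4) with doxycycline in miR-10b cells. There 15.3% of all tested genes passed. In miR-10a cells, where 1.21% of all tested genes passed, only SYT4 did. It was lower by 0.17 (adjusted p = 0.00380 in edgeR's quasi-likelihood test). MAP2 has 4 transcripts and NEFM has 2, and reads shared between transcripts appear to be left out. The rises of both may therefore not hold for the whole gene. Over the neuronal list, the summed level was 2404 to 2437 CPM in miR-10b controls and 2417 to 2441 CPM with doxycycline. Markers of mesoderm and fibroblasts summed to 145 to 165 CPM in the miR-10a groups, 349.9 to 369.9 CPM in miR-10b controls and 291 to 313 CPM in miR-10b with doxycycline, with the collagen genes COL1A1 and COL3A1 lower with doxycycline in miR-10b cells. Of 3 tested pluripotency markers, DPPA4 was lower in miR-10b than in miR-10a controls by a log2 difference of -0.43 (adjusted p = 1.15e-09), LEFTY1, at 0.784 to 2.91 CPM, was higher by 1.87 (adjusted p = 3.33e-06), and DNMT3B differed by 0.18 (adjusted p = 0.767). The smallest adjusted p of the 3 with doxycycline in either vector was 0.405. DNMT3B has 6 transcripts and group means of 1.05 to 1.40 CPM, so the limit given for MAP2 and NEFM holds for it too. The part of these markers in the results on LIN28A and the other members was not tested.

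Per length, the order of the members was the same in all 4 groups: LIN28A, HMGA2, IGF2BP3, LIN28B, TRIM71, ARID3B, IGF2BP1 and HMGA1. In miR-10a controls LIN28A stood at 384 ± 8.66 RPKM, HMGA2 at 227 ± 6.44 RPKM, IGF2BP3 at 145 ± 2.01 RPKM and LIN28B at 93.0 ± 3.15 RPKM. TRIM71 followed at 88.2 ± 2.43 RPKM, ARID3B at 44.2 ± 0.645 RPKM and IGF2BP1 at 19.2 ± 1.10 RPKM. LIN28B and TRIM71 overlapped in miR-10a controls only. In miR-10b cells with doxycycline, LIN28A had come down to 224 ± 3.20 RPKM and overlapped with HMGA2 at 217 ± 11.2 RPKM. HMGA1, HMGA2 and IGF2BP1 have several transcripts, and reads shared between these appear to be left out, so their RPKM may be too low.

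Of 20 genes that process, carry or degrade let-7 and were in the files, 16 were tested. With miR-10a the smallest adjusted p among them was 0.301, that of TARBP2. With miR-10b 3 passed: AGO1, a protein that carries miRNAs, rose by 0.09 (SE 0.031, adjusted p = 0.0363), MSI1, a neural RNA-binding protein, rose by 0.10 (SE 0.033, adjusted p = 0.0297), and HNRNPA1, which binds pri-let-7, fell by 0.19 (SE 0.054, adjusted p = 0.0116). TARBP2, a partner of DICER1, passed only in the average over both vectors, at 0.42 (SE 0.134, adjusted p = 0.0288) and a level of 2.59 to 4.17 CPM. Over the 16 genes the median change was 0.03 under miR-10a and 0.02 under miR-10b, where that of all tested genes was 0.01 and 0.02. DROSHA, DGCR8, DICER1, TARBP2, PRKRA, AGO2, AGO3 and DIS3L2 have several transcripts and group means of 2.31 to 8.68 CPM. Their SEs within a vector, 0.126 to 0.220, are too wide to show a change as small as that of LIN28A with miR-10a. HNRNPA1 has 2 transcripts, and reads shared between transcripts appear to be left out, so its fall may not hold for the whole gene. Mature let-7 was not measured, since the libraries were made from poly-A RNA. Of 13 let-7 host transcripts and precursors listed in the files, MIRLET7D, with 7 to 15 counts a sample, was the only 1 tested, and its changes of -0.33 for miR-10a and -0.02 for miR-10b did not pass.

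Among 20 other tested let-7 targets, 1 was lower with miR-10a, and 4 were lower and 1 higher with miR-10b, which is 5% and 25% of the list beside 1.21% and 15.3% of all tested genes. PRTG (protogenin), an immunoglobulin-family receptor of the early neural tube, showed the largest change of the list. Its level was 7132 ± 229 CPM in miR-10a controls and 4847 ± 392 CPM with doxycycline, and 4672 ± 260.3 CPM and 3219.9 ± 32.3 CPM in the miR-10b groups (SD, n = 3). It fell by 0.56 (SE 0.038, adjusted p = 6.33e-13) and by 0.54 (SE 0.038, adjusted p = 5.70e-13), and the controls of the vectors differed by -0.61 (adjusted p = 3.50e-15). The longest 3′ UTR of PRTG held both a let-7 8mer and a miR-10 8mer, which no member did. Of the same list MAP4K4 and TGFBR1 also held both, as did AGO3 of the biogenesis list, and none of these 3 passed in either vector. Their changes with miR-10b were 0.10 for MAP4K4 (SE 0.076, adjusted p = 0.415), -0.15 for TGFBR1 (SE 0.076, adjusted p = 0.199) and 0.11 for AGO3 (SE 0.181, adjusted p = 0.763). MAP4K4 has 5 transcripts, TGFBR1 has 2 and AGO3 has 2, and reads shared between transcripts appear to be left out. These values therefore do not show whether the whole genes changed.

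NRAS, a small GTPase, fell by 0.38 (SE 0.036, adjusted p = 4.14e-10) with miR-10b, and its change with miR-10a was -0.11 (adjusted p = 0.129). Like LIN28A, it passed the test of the difference between vectors, at -0.27 (SE 0.050, adjusted p = 0.00123), and unlike LIN28A its controls did not pass, at -0.03 (adjusted p = 0.713). The cell cycle gene CCND1 fell by 0.16 (SE 0.030, adjusted p = 1.96e-04) with miR-10b, and MYC fell by 0.25 (SE 0.076, adjusted p = 0.0243). With miR-10a their changes were -0.08 (SE 0.030, adjusted p = 0.257) and -0.23 (SE 0.077, adjusted p = 0.160) in edgeR's quasi-likelihood test. Neither passed the same test of the difference between vectors (adjusted p = 0.421 and 0.984). E2F2, a transcription factor of S phase entry, rose by 0.15 with miR-10b (SE 0.047, adjusted p = 0.0276). In the average over both vectors 5 targets were lower and 2 higher, the other higher target being CDC34, a ubiquitin-conjugating enzyme, at 0.08 (SE 0.029, adjusted p = 0.0466). Over the 20 targets the median was 0.03 for miR-10a and -0.02 for miR-10b, beside 0.01 and 0.02 over all tested genes.

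Of 5 tested oncofetal genes outside the axis, DLK1, a Notch-like protein of foetal tissue, fell in both vectors, by 0.39 with miR-10a (SE 0.049, adjusted p = 3.31e-06) and by 0.16 with miR-10b (SE 0.053, adjusted p = 0.0377). H19, an imprinted non-coding RNA, fell by 0.43 with miR-10b (SE 0.112, adjusted p = 0.00606). The miR-10b groups overlapped for both genes. DLK1 was at 171.6 to 191.8 CPM without and 151.3 to 175.6 CPM with doxycycline, and H19 at 21.8 to 24.8 and 13.4 to 22.8 CPM. Between the controls of the vectors, DLK1 differed by -0.94 (adjusted p = 3.20e-17) and H19 by 0.56 (adjusted p = 3.50e-04). IGF2, the growth factor after which the IGF2BP family is named, passed only in the average, at -0.94 (SE 0.258, adjusted p = 0.00934), and stood at 0.406 to 1.24 CPM, a few counts above the floor. IGF2 has 5 transcripts, and reads shared between these appear to be left out, so these values are not read as its level. SALL4, a stem cell transcription factor, stood at 282 to 312 CPM and did not pass with doxycycline in either vector.

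**Figure D5:**
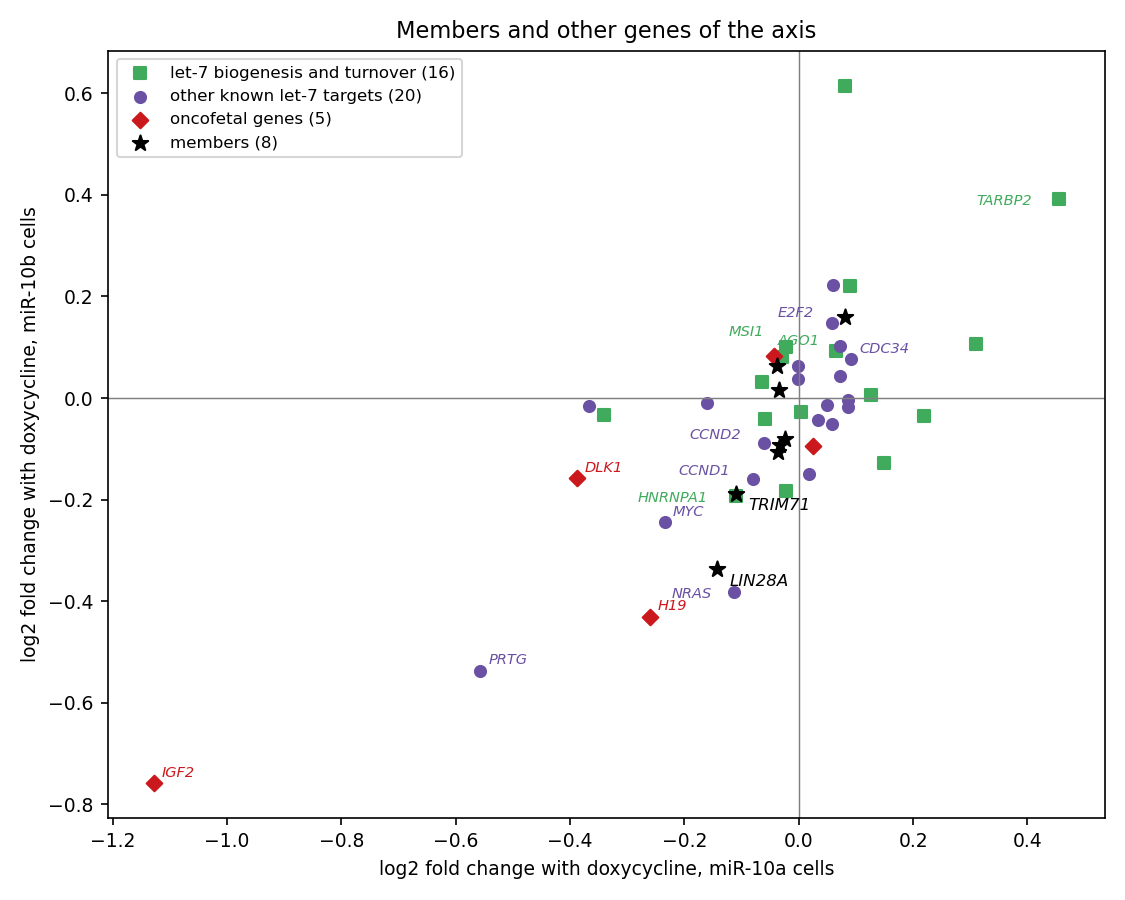
Log2 fold change with doxycycline in miR-10a cells (horizontal) and miR-10b cells (vertical) for the 8 members and for the tested genes of the 3 other lists, which are named where they passed the threshold in a vector or in the average. PRTG lies at -0.56 and -0.54, LIN28A at -0.14 and -0.34, and most other genes lie near 0 on both axes.

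Over all genes with a let-7 8mer the median was near 0 in both vectors, and with miR-10b it lay below that of all tested genes. For the 423 tested genes with such a match that were not members, it was 0.01 under miR-10a and -0.004 under miR-10b. With miR-10b 34 of them were higher and 51 lower, 20.1% in all. Over all tested genes the medians were 0.01 and 0.02, and 15.3% passed with miR-10b, 8.18% higher and 7.15% lower. The sets with a match come only from the 9260 genes with an annotated 3′ UTR, among which the share that passed was not computed. For the 240 genes with a miR-10 8mer the medians were -0.02 and -0.04, and 12 were higher and 47 lower with miR-10b, 24.6% in all. For the 1270 genes whose best miR-10 match was a 7mer-m8, the kind found in LIN28A and TRIM71, the medians were 0.004 and -0.006, and 96 were higher and 165 lower with miR-10b, 20.6% in all. With miR-10a 3 of the 423 were higher and 5 lower, 1.89% in all. Of the 240, 0 were higher and 11 lower with miR-10a (4.58%), and of the 1270, 5 were higher and 23 lower (2.20%). Over all tested genes 1.21% passed with miR-10a, 0.472% higher and 0.742% lower.

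LIN28A followed the groups so evenly that other genes with the same order of groups matched it closely. The 5 genes with the highest Pearson correlation to LIN28A, over the log2(CPM + 0.5) of the 12 samples, were PTN (0.994), FGFBP3 (0.993), SLC2A1 (0.989), IGDCC3 (0.989) and ARAP3 (0.987). These encode a secreted growth factor, an FGF-binding protein, a glucose transporter, an immunoglobulin-family membrane protein and a GTPase-activating protein. FGFBP3, for example, stood at 670.2 ± 7.13, 560 ± 13.8, 443 ± 9.54 and 304 ± 8.62 CPM in the 4 groups in the order used above. IGDCC3 held 3 let-7 8mers in its longest 3′ UTR, FGFBP3 held a miR-10 7mer-m8, and PTN, SLC2A1 and ARAP3 held no match of either family. Among the members, TRIM71 (0.973), LIN28B (0.968) and IGF2BP3 (0.947) were most like LIN28A, HMGA1 (0.719) and IGF2BP1 (0.633) less so, HMGA2 (0.240) least, and ARID3B (-0.422) ran against it. The 12 points share 4 groups and 2 vectors, and 216 of 11443 genes had a correlation above 0.9, so the values describe the profile only.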

How the data were processed

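Poly-A RNA of 12 samples was sequenced as 50-base single-end reads. The authors aligned reads to hg19 and deposited raw counts per RefSeq transcript, with transcript lengths. Per the submitters' notes STAR, Subread and featureCounts were used, with versions not given in the sources used here. Each deposited file held 51799 rows for 48101 transcripts, and 3698 repeated rows were dropped. Genes with 1 transcript held 92.84% of counts, so reads shared by transcripts appear to be left out and genes with several transcripts are measured poorly.

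Genes with a mean above 10 counts (11451) were tested on the counts with edgeR 4.0.16 (R 4.3.3), using the quasi-likelihood test, total counts as library sizes, the 4 groups as means and Benjamini-Hochberg adjustment. The threshold was an adjusted p of 0.05. Contrasts were doxycycline against control in each vector, their average and difference, and the controls of the vectors. SE is the log2 fold change divided by the square root of F. The fit was checked on simulated counts. DESeq2 1.42.0, TMM factors, other filters, summed transcripts, a replicate block and leaving out each sample were alternatives. Ratios were tested by exact two-sided permutation (scipy 1.17.1). Nothing in the labels states that replicates were separate cultures, so p-values measure the spread between these samples, which may be technical. Named genes were the 9 members, up to 6 genes past the threshold from each list of let-7 biogenesis, let-7 target and oncofetal genes, the 5 genes most like LIN28A, and the 2 induced transcripts. Markers named beside the results, genes named for holding both 8mers and the counts of matches were chosen after their values were seen. The members and lists were chosen with earlier results of these data known. The floor of 3 counts covers counting error only.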

Additional observations from a re-analysis of the deposited data

Results flagged for a closer look

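The effect of doxycycline on LIN28A differed between the vectors. The difference of the log2 fold changes, miR-10b minus miR-10a, was -0.195 (SE 0.040, adjusted p = 0.00413 in edgeR's quasi-likelihood test), with LIN28A lower with doxycycline in 3 of 3 samples of each vector. The difference lay between -0.210 and -0.177 when each of the 12 samples was left out in turn. The miR-10b controls began at a lower level of LIN28A than the miR-10a controls. The MIR10B transcript reached a higher level than the MIR10A transcript, and mature miR-10 was not measured. The part of the starting level or of the transcript level in the difference was not tested.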

How the results depend on the processing

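LIN28A and TRIM71 kept their direction in every alternative run, and in miR-10b cells their calls as well. Fitting only the 6 samples of a vector gave 275 genes and 2 members with miR-10a (139 and 1 in the fit of all samples) and 3 members with miR-10b (5 in the fit of all samples), where LIN28B (adjusted p = 0.0945) and HMGA2 (0.0609) were lost. With no filter on counts, 343 genes differed between the vectors (224 with it), and LIN28B with miR-10b was lost (0.0614). Leaving out each sample in turn gave 75 to 268 genes and 0 to 2 members with miR-10a, 2 to 5 members with miR-10b, and 140 to 339 genes for the difference. The lowest and highest miR-10a counts were without replicate 1 of miR-10a with doxycycline and without replicate 2 of miR-10b with doxycycline. The average call of HMGA2 was lost in 8 of those 12 fits, and that of LIN28B, missed at 0.0553, was reached with TMM (0.0207), DESeq2 (0.00940) and a minimum mean of 50 counts (0.0415), as was that of IGF2BP3 with TMM (0.0312) and DESeq2 (0.00938). Samples with the same replicate number did not deviate together (correlations from -0.032 to 0.008 in 6 pairs), so the numbers were not used as pairs. A replicate block gave 116 genes with miR-10a, 1638 with miR-10b, 1461 in the average and 218 for the difference, and changed 1 call among the members, LIN28B with miR-10b (adjusted p = 0.0736). Depth limits HMGA1, with 18 to 44 counts a sample, and IGF2BP2 has no level.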
